A study of Mus musculus with 13 samples.

Results

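Cytosolic ribosomal protein genes encode the protein parts of the ribosome outside mitochondria. The set held 80 protein-coding genes of the 46679 gene identifiers in the deposited tables: 49 of the large subunit, with symbols Rpl, and 31 of the small subunit, with symbols Rps. A gene was a member if its mouse symbol was Rpl or Rps followed by a number and an optional letter, or was Rplp0, Rplp1, Rplp2 or Rpsa; kinases of the Rps6k family and pseudogenes were left out. The choice used names alone and no measured value.

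The study asked how a mammary tumor elsewhere in the body affects gene expression in the lung. All mice were female, of strain FVB and 10 weeks old. Tumor-bearing mice had received 250000 cells of Met1, a mouse mammary tumor line, in the inguinal mammary fat pad when 8 weeks old, and their tissues were collected after 2 weeks. Mammary tumors came from mice 6877, 6880 and 6881, all prepared in batch 2. Tumor-bearing lungs came from mice 6879, 6880 and 6881 in batch 1 and from mouse 6877 in batch 2. Normal lungs, from mice without a tumor, came from mice 6886 and 6888 in batch 1 and from mice 6886, 6887, 6888 and 6893 in batch 2, so that 2 normal mice were prepared in both batches. Met1 is a single line, and the tumors also hold cells of the host, so that in these bulk samples fewer cells of a type and less RNA per cell cannot be told apart.

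Ribosomes are built in the nucleolus, where ribosomal RNA made by RNA polymerase I is folded, trimmed and joined with ribosomal proteins by assembly factors. Ribosomal protein mRNAs are among the most abundant of the cell and begin with a C and a run of pyrimidines, the 5′ terminal oligopyrimidine (TOP) motif, through which mTOR and Larp1 control their translation. Their demand is known to be high in growing and dividing cells, and Myc is known to raise transcription of genes for ribosome production.

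RefSeq promoters, on build GRCm38.p6, were on hand for 60 of the 80 members, with 72 annotated starts, each as 250 bases before and 50 bases from the start on. A C followed by at least 4 pyrimidines stood exactly at the annotated start in 13 of 72 member starts (18.1%), against 2.51% of all 32851 starts in the table. The letters CCGGAA, which hold the GGAA core that Ets factors such as GABP bind, were present on either strand in 34 of 72 member windows (47.2%), against 14.9% of all windows. AAGATGGCG, letters known from YY1 sites, was present on either strand in 5 of 72 (6.94%), against 1.4% of all windows. Matches describe these letters in these windows only. The windows of 30 bases below, with 15 bases before the start and 15 from it on, hold the TOP-like run of members with large changes in tumors (Rpl38, Rplp2, Rpl15) or low estimates in tumor-bearing lung (Rpl35, Rpl35a). Capitals mark the run, which begins at the annotated first base of the transcript. Rps27 is shown because its run overlaps TTCCGG, the other strand of CCGGAA, and there the capitals cover both.
Rpl38, chr11:114668565-114668594, plus strand: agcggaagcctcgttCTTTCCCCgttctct
Rplp2, chr7:141447636-141447665, plus strand: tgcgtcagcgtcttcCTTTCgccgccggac
Rpl15, chr14:18270972-18271001, minus strand: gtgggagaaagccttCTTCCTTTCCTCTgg
Rps27, chr3:90213634-90213663, minus strand: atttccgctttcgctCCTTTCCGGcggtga
Rpl35, chr2:39005117-39005146, minus strand: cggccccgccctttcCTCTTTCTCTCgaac
Rpl35a, chr16:33056467-33056496, plus strand: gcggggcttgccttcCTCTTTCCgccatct

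The promoter of Rpl38, which had the largest increase of the set in tumors, and that of Rpl11, among those with the smallest, are given as 150 bases before and 30 bases from the start on. Capitals mark CCGGAA in both windows and, in that of Rpl38, also the pyrimidine run at the start. The window of Rpl11 ends in a run of pyrimidines too, left unmarked because it begins some bases after the annotated start. The windows therefore do not show that Rpl11 lacks a TOP motif.
Rpl38, chr11:114668430-114668609, plus strand: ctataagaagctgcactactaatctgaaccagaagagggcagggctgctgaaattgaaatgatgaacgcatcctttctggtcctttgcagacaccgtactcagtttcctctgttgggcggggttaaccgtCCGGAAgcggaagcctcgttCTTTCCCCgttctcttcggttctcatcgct
Rpl11, chr4:136053364-136053543, minus strand: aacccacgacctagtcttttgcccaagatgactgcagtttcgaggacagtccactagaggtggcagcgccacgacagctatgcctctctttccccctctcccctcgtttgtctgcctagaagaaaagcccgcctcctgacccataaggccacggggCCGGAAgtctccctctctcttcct

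Libraries were made from total RNA after removal of ribosomal RNA and held 8321037 to 13982903 estimated counts. Protein-coding genes took 45.6 to 69.6% of the counts. For 6 lung epithelium markers, including the surfactant gene Sftpc, tumors summed to 3.59 to 27.3 CPM (counts scaled by library size with TMM factors). Tumor-bearing lungs had 9270 to 19660 CPM and normal lungs 13611 to 19437 CPM, so these sums set every lung apart from every tumor. Markers of the mammary tumor epithelium, such as Krt8, summed to 868.1 to 1203 CPM in tumors. The sums were 328.8 to 485.2 CPM in tumor-bearing lungs and 354.2 to 560.4 CPM in normal lungs. Krt8, Krt18, Epcam and Elf5 were higher in every tumor than in every lung library. Krt19 was lower, at 4.31, 3.98 and 4.68 CPM in tumors 6877, 6880 and 6881, against 72.7 to 110.2 CPM in lungs. Cdh1 overlapped between tumors and lungs. Heart muscle markers, such as Myh6, stood apart in tumor-bearing lung 6879 of batch 1, at 900.5 CPM, and in the batch 2 library of normal lung 6886, at 586.5 CPM, against 15.4 to 41.3 CPM in the other 11 libraries.

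As a share of all protein-coding counts, the ribosomal protein genes were highest in tumors, and the level differed between preparation batches. In batch 2 they took 9.93, 5.56 and 9.3% of protein-coding counts in mammary tumors 6877, 6880 and 6881, 2.68% in tumor-bearing lung 6877, and 2.68, 3.77, 3.21 and 2.92% in normal lungs 6886, 6887, 6888 and 6893. In batch 1 they took 0.985, 1.06 and 1.11% in tumor-bearing lungs 6879, 6880 and 6881, against 1.41 and 1.35% in normal lungs 6886 and 6888. Every tumor lay above every lung. Tumor 6880 was the lowest of the tumors. In batch 1 the tumor-bearing lungs lay below the normal lungs. In batch 2 the single tumor-bearing lung was level with the lowest normal lung. The 95% Wilson intervals of these shares were at most 0.052 percentage points wide. They treat the deposited estimated counts as counted molecules, though these are not tallies of reads and reads here carry no molecular identifiers. The intervals cover neither the assignment of reads between members and pseudogene copies nor the spread between mice. As group means the shares were 8.26% ± 2.36 in tumors (SD, n = 3) and 3.14% ± 0.469 in normal lungs of batch 2 (SD, n = 4), and 1.05% ± 0.0645 in tumor-bearing lungs (SD, n = 3) and 1.38% ± 0.0414 in normal lungs (SD, n = 2) of batch 1.

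**Figure D1:**
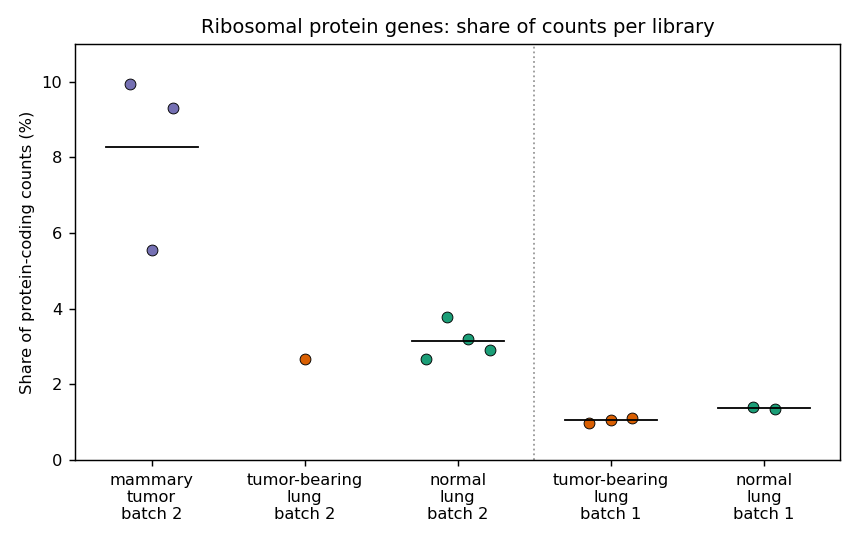
Share of protein-coding counts taken by the 80 ribosomal protein genes, in percent (vertical axis), for each of 13 libraries (points), by tissue and preparation batch (horizontal axis); lines are means of groups with more than 1 library. The 3 tumors lie between 5.56 and 9.93%, above the 10 lung libraries, which lie between 0.985 and 3.77%.

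Per length, on the scale of TPM rescaled to the sum over protein-coding genes (a level corrected for transcript length), members took a mean of 20.9% ± 4.6 in tumors (SD, n = 3), 8.4% in lung 6877 of the tumor-bearing group, and 9.61% ± 1.33 in the normal lungs of batch 2 (SD, n = 4). In tumors the highest member was Rpl41, which encodes the smallest ribosomal protein, at 11695 ± 2189 TPM (SD, n = 3), against 4470 ± 657.9 TPM in the normal lungs of batch 2 (SD, n = 4). Rps19, whose human gene is mutated in the anemia of Diamond and Blackfan, came 5th among members in tumors at 9472 ± 2205 TPM (SD, n = 3) and 1st in the normal lungs of batch 2 at 5964 ± 1003 TPM (SD, n = 4). Rpl38 came 4th in tumors at 10926 ± 3051 TPM (SD, n = 3) and 21st in those normal lungs at 1726 ± 169.7 TPM (SD, n = 4). The first places are close: in tumors Rpl41, Rps15a and Rpl38, at mean levels of 11695, 11504 and 10926 TPM, differed by less than their SDs.

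At the other end, 4 members did not pass the filter on low counts in any comparison, and 76 of 80 did. Rpl3l, a paralog used in heart and skeletal muscle, had 0 to 0.593 CPM over the 13 libraries. Rpl10l and Rpl39l, paralogs used in the testis, reached at most 0.239 and 0.39 CPM. Rps12, a general member of the small subunit, was listed at 0 in all 13 libraries, where 3 counts would be 0.215 to 0.361 CPM. Pseudogenes that are near copies of Rps12, 16 in number, together held 81779 counts. The level of this gene can therefore not be read from its own entry.

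Near-identical pseudogene copies touched most members. Pseudogenes with a transcript that matched a member over at least 50% of its length at 90% identity or more numbered 842, were assigned to 76 of the 80 members, and held 32.1% of all counts of members and copies. Next to Rps12, with all of its summed counts on copies, the highest shares were those of Rps2, Rpl12 and Rpl5, at 97.4, 96.5 and 95.6%. The share on copies ranged from 30.1 to 35.2% over the libraries. An alternative with copies summed into their member was added after seeing the data, and its values are given for genes described below whose call or overlap it changes.

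Comparing mammary tumor with normal lung within batch 2, ribosomal protein genes were higher in tumors as a group, by a median log2 fold change of 1.41, against −0.02 over all genes tested. Of 76 members tested, 68 were higher and 0 lower in tumors (edgeR quasi-likelihood test, adjusted p below 0.05 by Benjamini-Hochberg over 18038 genes, n = 3 tumors and 4 lungs), where 29.4% of all genes were higher and 56.8% changed in either direction. DESeq2 called 71 higher and 0 lower, and voom 64 and 0, for which the shares of all genes were not computed. At an unadjusted p below 0.05 the counts were 73 higher and 0 lower, where 31.5% of all genes were higher and 29.8% lower. The large subunit had 42 of 46 tested members higher with a median of 1.33, and the small subunit 26 of 30 with a median of 1.50. Members ranged from 0.48 for Rpl21 to 3.05 for Rpl38, and all 76 estimates were positive. With an offset for transcript length the estimates of Rpl21 and Rps29 turned to −0.04 and −0.19.

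Rpl38, a large subunit protein at the exit of the peptide tunnel that is known in mice for its part in patterning the skeleton, had 1149, 466.3 and 858.2 CPM in tumors 6877, 6880 and 6881, against 94.6, 116.1, 98.8 and 92 CPM in the normal lungs of batch 2. Each tumor lay far above each lung. The log2 fold change was 3.05 ± 0.28 (SE), with an adjusted p of 2.15e-05 by edgeR's quasi-likelihood test. Counting its pseudogene copies with it left 3.02.

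The stalk of the large subunit, which recruits translation factors that use GTP, consists of Rplp0, Rplp1, Rplp2 and Rpl12 at its base. All 4 were higher in tumors, with a median log2 fold change of 2.01. Rplp2 had 1395, 584.9 and 894.4 CPM in tumors 6877, 6880 and 6881, against 163.4, 210.4, 177.3 and 168.8 CPM in the normal lungs of batch 2, and Rplp0 had 2774, 1529 and 1826 CPM in those tumors, against 397.4, 520.6, 460.5 and 415.4 CPM in those lungs. The tumors and lungs did not overlap for either gene. Rplp2 rose by 2.42 ± 0.27 and Rplp0 by 2.19 ± 0.23 on the log2 scale (SE), with adjusted p of 7.12e-05 and 4.78e-05 by edgeR. Rplp1, at 1.29 ± 0.26 (SE, edgeR adjusted p = 0.00245), rose less than its partner Rplp2 in this fit; the difference between them was not tested.

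Among small subunit proteins, Rps27a, which is made as a fusion with ubiquitin, had 998.4, 292.6 and 824.9 CPM in tumors 6877, 6880 and 6881, against 119.7, 168, 123.9 and 130.9 CPM in the normal lungs of batch 2. Rpsa, also known as the laminin receptor, had 2303, 982.5 and 1454 CPM in the tumors, against 276.4, 397.8, 320.1 and 317 CPM in the lungs. In both genes tumor 6880 was lowest among tumors yet above every lung. Their log2 fold changes were 2.39 ± 0.36 and 2.28 ± 0.28 (SE), with adjusted p of 0.00043 and 0.000124 by edgeR. Rps2, near the site where the mRNA enters, had 60, 64.9 and 16.8 CPM in the tumors, against 11, 8.21, 4.74 and 6.66 CPM in the lungs, and a log2 fold change of 2.62 ± 0.44 (SE, edgeR adjusted p = 0.000779), which was 2.16 ± 0.20 with its copies summed.

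The 8 members that missed the threshold were Rpl21, Rps29, Rps15, Rpl11, Rps3, Rpl35, Rps7 and Rpl35a, with edgeR adjusted p of 0.0508 to 0.236. With copies summed, 5 of these 8 passed: Rps7 at 1.51 (edgeR adjusted p = 0.000738), Rpl35a at 1.42 (0.00086), Rpl11 at 1.00 (0.00833), Rpl35 at 1.04 (0.0425) and Rps3 at 0.92 (0.0463). Rpl21, a large subunit protein, had 351, 107.8 and 252.3 CPM in tumors 6877, 6880 and 6881, against 152.9, 191, 172.2 and 168.9 CPM in the normal lungs of batch 2. Rpl11, which with Rpl5 and the 5S RNA can bind the p53 regulator Mdm2, had 380.1, 106.2 and 294 CPM in the tumors, against 132.2, 168.9, 157.1 and 147.2 CPM in the lungs. In both genes tumors 6877 and 6881 lay above all normal lungs and tumor 6880 below all of them. The log2 fold changes were 0.48 ± 0.32 for Rpl21 and 0.79 ± 0.35 for Rpl11 (SE). With copies summed, tumor 6880 was above all 4 lungs for Rpl11, at 301.7 CPM against 211 to 300.4 CPM, and still below them for Rpl21, at 219.9 CPM against 273.1 to 343.3 CPM.

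Rps3, a small subunit protein at the mRNA entry site with a further role in DNA repair, had 1536, 516.4 and 1436 CPM in tumors 6877, 6880 and 6881, against 487.2, 743.1, 715.1 and 557.6 CPM in the normal lungs of batch 2. Tumor 6880 fell within the range of the lungs. The log2 fold change of 0.91 ± 0.35 (SE) had an edgeR adjusted p of 0.0508. Rpl36, a large subunit protein, had 729.6, 139.5 and 659.2 CPM in the tumors, against 160.5, 245.1, 213.7 and 189.7 CPM in the lungs, with tumor 6880 below all lungs and a log2 fold change of 1.34 ± 0.46 (SE, edgeR adjusted p = 0.0309). With copies summed, tumor 6880 was within their range for Rpl36, at 191.7 CPM against 166.6 to 254.5 CPM. Rpl13, another large subunit protein, rose by 1.08 ± 0.32 (SE, edgeR adjusted p = 0.0159).

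Tumor 6880 was the lowest of the 3 tumors in 69 of 76 members (90.8%), against 31% of all 18038 genes tested, and tumor 6877 was the highest in 68 (89.5%), against 38.4% of all genes. For 61 of 76 members each tumor lay above each normal lung of batch 2 (29.6% of all genes tested). Without tumor 6880, 76 of 76 members were called higher and the median was 1.66, against −0.06 over all genes. Without tumor 6877, 62 were called and the median was 1.11, against −0.06 over all genes. The shares of all genes called in these fits were not computed. Proliferation markers summed to 395.5 CPM in tumor 6880, to 326.1 and 384.3 CPM in tumors 6877 and 6881, and to 17.5 to 36 CPM in the lungs, and the share of protein-coding counts on mitochondrially encoded genes was 3.74% in tumor 6880 and 2.55 and 2.98% in tumors 6877 and 6881. The part of these in the ribosomal protein values was not tested.

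**Figure D2:**
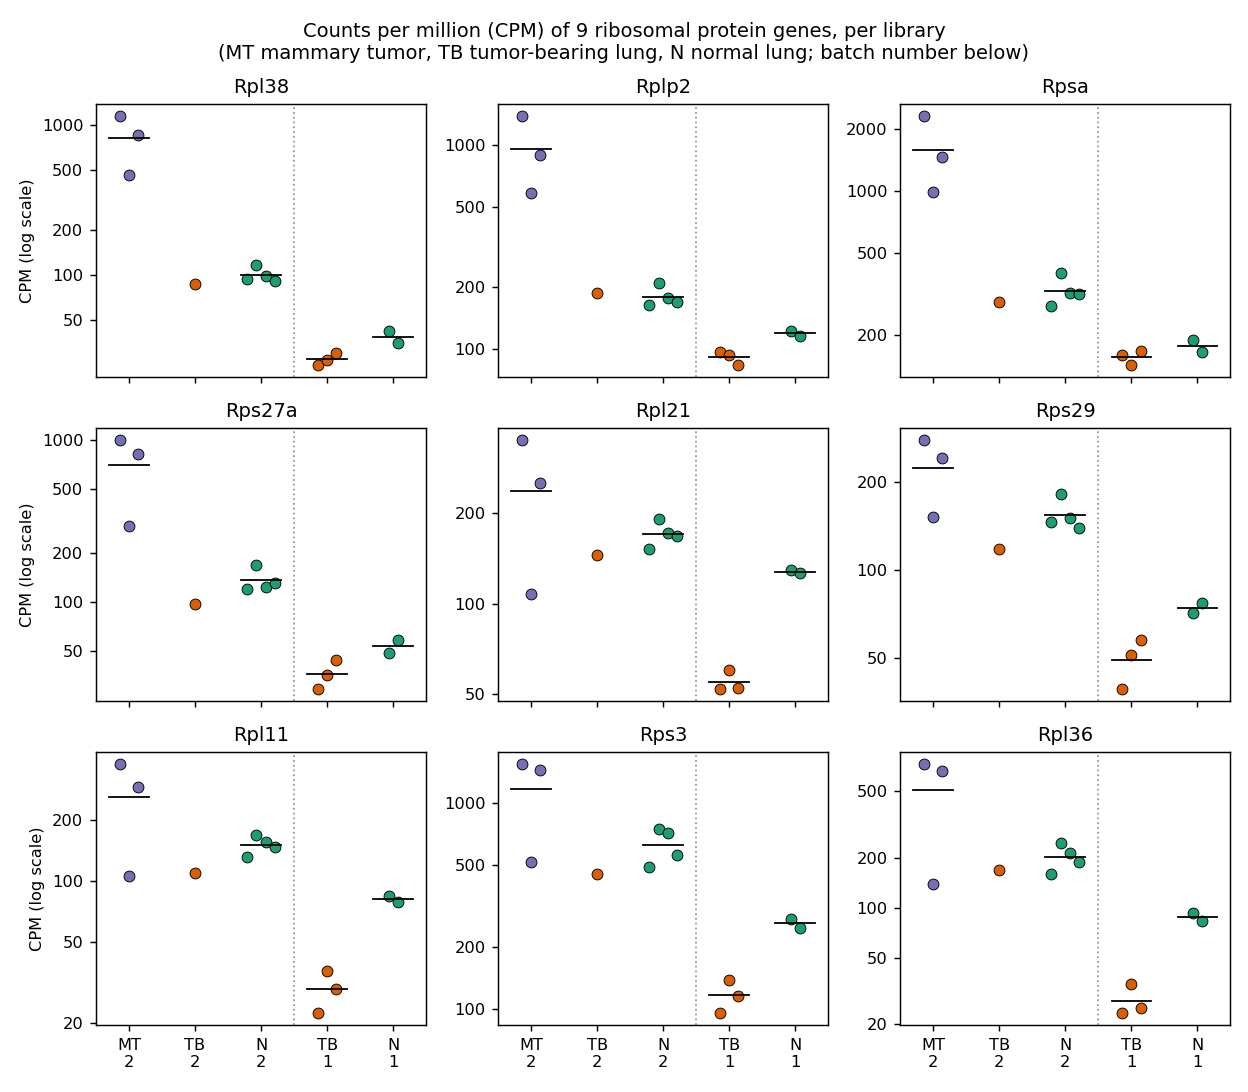
CPM on a log scale (vertical axis) of 9 ribosomal protein genes in 13 libraries (points), by tissue and preparation batch (horizontal axis); lines are means of groups with more than 1 library. Rpl38, Rplp2, Rpsa and Rps27a separate all 3 tumors from every lung, whereas for Rpl21, Rpl11 and Rpl36 the tumor with the lowest value, 6880, lies below the normal lungs of batch 2; with pseudogene copies summed this holds for Rpl21 but not for Rpl11 or Rpl36.

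Other lists of the protein synthesis machinery also held mostly higher genes in tumors, where 29.4% of all genes were higher and 27.4% lower. Mitochondrial ribosomal proteins, which share no gene with the cytosolic set, had 70 of 78 genes higher and 0 lower, with a median log2 fold change of 1.28; Mrps7 rose by 3.53 ± 0.19 (SE, edgeR adjusted p = 1.06e-06). Ribosome assembly factors had 36 of 40 higher with a median of 1.43, among them Nhp2, a protein of guide RNAs that modify ribosomal RNA, at 3.04 ± 0.23 (SE, edgeR adjusted p = 5.65e-06) and nucleolin (Ncl) at 1.68 ± 0.13 (SE, edgeR adjusted p = 7.18e-06). Of RNA polymerase I and its factors 8 of 12 were higher and 1 lower, with a median of 1.16. Translation factors whose mRNAs also carry TOP motifs had 17 of 19 higher and a median of 1.37, led by nucleophosmin (Npm1) at 2.77 ± 0.21 (SE, edgeR adjusted p = 6.35e-06). Initiation factors had 15 of 19 higher and 1 lower, with a median of 1.12.

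Of regulators of ribosome production 6 of 19 were higher and 5 lower, with a median of −0.05, shares near those of all genes. Myc had 45.6, 51.7 and 57.9 CPM in tumors 6877, 6880 and 6881, against 7.22, 7.03, 8.61 and 7.3 CPM in the normal lungs of batch 2. Tumor 6880, lowest in most ribosomal protein genes, held the middle value of the tumors for Myc. The log2 fold change was 2.79 ± 0.16 (SE, edgeR adjusted p = 1.46e-06), and Cdkn1a, the cell cycle inhibitor controlled by p53, fell by 1.38 on the log2 scale (SE 0.22, edgeR adjusted p = 0.000622). Other protein-coding genes whose average length was no greater than that of the longest member had a median of 0.32. That longest member, Rpsa, was at 94.5% of the median protein-coding length, and the list held 6621 of 14242 protein-coding genes tested. Most members are far shorter, so the list is not matched to them in length. With an offset for average transcript length the median of the members was 0.89, against 0.00 over all genes, and 54 were called. The share of all genes called in that fit was not computed.

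Members with the pyrimidine run at the start, 13 in number, had a median log2 fold change of 1.45, and the 43 others with a promoter 1.34. The run was sought at the exact annotated start alone. Members with a run some bases away from it, such as Rpl11, therefore count among the 43. For CCGGAA the medians were 1.43 in 32 members with it and 1.40 in 24 without. These medians lie within the spread among members, whose interquartile range was 1.12 to 1.74. A list of 6 ribosomal proteins and paralogs was drawn from those that the naming rule left out. Each was called higher, with a median of 1.36. Rps3a1, a small subunit gene, was left out by the rule too and is not in this list. It had 1529, 923.2 and 1238 CPM in tumors 6877, 6880 and 6881, against 370.6 to 484.2 CPM in the normal lungs of batch 2. Rack1, a scaffold protein on the small subunit that also stands in the list of TOP factors, rose by 2.00 ± 0.28 (SE, edgeR adjusted p = 0.00025).

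Set against tumor-bearing lung, with batch as a term and 11 libraries in the fit, mammary tumors again had higher ribosomal protein mRNA, by a median log2 fold change of 1.77, against −0.10 over all genes. All 76 tested members were called higher (edgeR quasi-likelihood test, 18297 genes), where 22.6% of all genes were. This comparison uses the same tumors as that with normal lung, so its values are given beside those and not as a repeat. Only 1 tumor-bearing lung, that of mouse 6877, was in the batch of the tumors, and the step between batches is taken from the lungs. With the mouse as a replicate block 51 of 76 members were called and the median was 2.02, against −0.14 over all genes. There the tumor term rests on mouse 6877, the only one with both tissues in the same batch. With an offset for transcript length 56 were called and the median was 1.17, against −0.08 over all genes. The shares of all genes called in these alternative fits were not computed.

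Rpl38 led here too, at 3.32 ± 0.34 on the log2 scale (SE, edgeR adjusted p = 1.24e-05), with 1149, 466.3 and 858.2 CPM in the tumors and 25.2, 27, 30.4 and 87.5 CPM in tumor-bearing lungs 6879, 6880, 6881 and 6877. The last of these lungs, from batch 2, stood above the others and below every tumor. Rps27a was at 2.82 ± 0.44 (SE, edgeR adjusted p = 0.000276). The smallest change was that of Rps29, a small subunit protein with a zinc-binding motif, at 0.97 ± 0.27 (SE, edgeR adjusted p = 0.0116); with copies summed it was 0.88 and missed the threshold, with an adjusted p of 0.0585. For 67 of 76 members each tumor lay above each tumor-bearing lung of both batches (26.6% of all genes). These CPM carry the step between batches, since 3 of the 4 tumor-bearing lungs are from batch 1, and members were a median log2 of 1.05 higher in batch 2 of the same normal lungs, against 0.02 over all genes.

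Mouse 6877 gave both its tissues to batch 2, which allows a comparison within 1 animal and 1 batch. Rplp2 had 1395 CPM in its tumor and 187.7 CPM in its lung. Rps3 had 1536 CPM in the tumor and 453.2 CPM in the lung. Rpl11 had 380.1 CPM in the tumor and 110.3 CPM in the lung. With a single animal this has no replicate check. A fit over the batch 2 libraries alone gave the members a median of 1.69, against 0.01 over all genes.

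**Figure D3:**
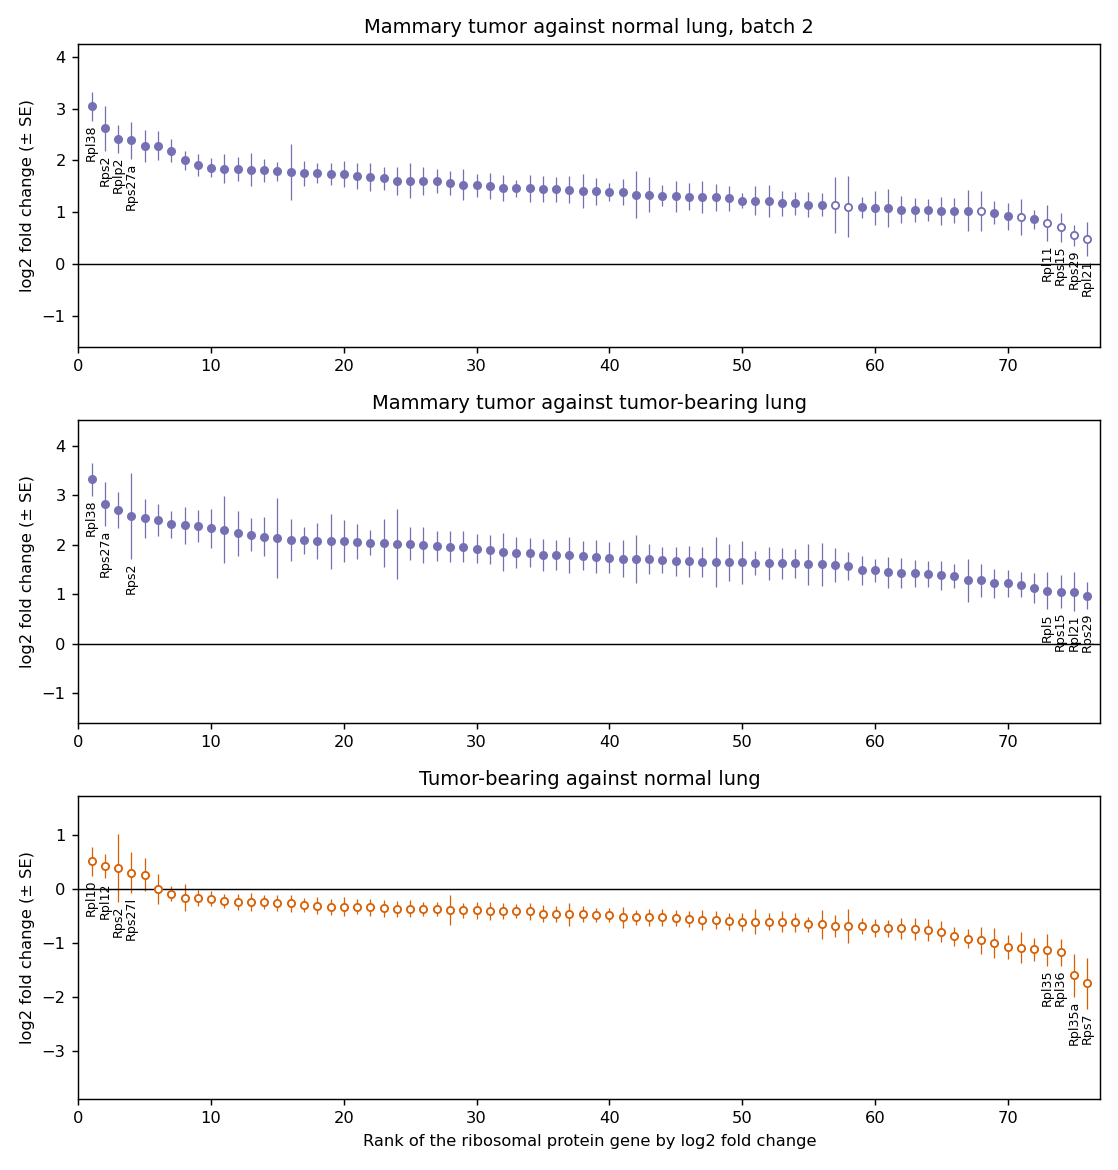
Log2 fold change with its SE (vertical axes) of 76 ribosomal protein genes ranked by it (horizontal axes) for mammary tumor against normal lung in batch 2, mammary tumor against tumor-bearing lung, and tumor-bearing against normal lung; filled points have an edgeR adjusted p below 0.05. Tumors were above lungs for every gene in the top and middle panels, with 68 and 76 filled points, and in the bottom panel 71 of 76 genes are below 0 and no point is filled.

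In tumor-bearing against normal lung, the comparison the study was designed for, no ribosomal protein gene passed the threshold, yet most estimates were negative. With batch as a term and 8 lungs (n = 4 each), 0 of 76 tested members were called in either direction by edgeR's quasi-likelihood test after Benjamini-Hochberg adjustment over 16727 genes, where 0.0359% of all genes were called, 0.0239% lower and 0.012% higher. At an unadjusted p below 0.05, 52 members were lower and 0 higher, where 7.87% of all genes were lower and 6.13% higher at that level. The median log2 fold change was −0.48, against 0.01 over all genes, and 71 estimates were negative and 5 positive. Large and small subunit members had like medians, −0.49 and −0.47. Other tools gave other counts of lower members: 30 by DESeq2 (0.963% of all genes), 17 by edgeR without a filter on low counts (0.567%), 2 by limma on log2(TPM + 1) (0.514%) and 0 by voom (0.0239%).

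The fit used the batch 1 libraries of the normal mice prepared in both batches. In batch 1, Rpl11 had 22.3, 36 and 29.2 CPM in tumor-bearing lungs 6879, 6880 and 6881, against 84.9 and 78.8 CPM in normal lungs 6886 and 6888. In batch 2 it had 110.3 CPM in tumor-bearing lung 6877, against 132.2, 168.9, 157.1 and 147.2 CPM in normal lungs 6886, 6887, 6888 and 6893. Within each batch every tumor-bearing lung was below every normal lung. Its log2 fold change of −1.12 ± 0.21 (SE) had an unadjusted p of 0.000408 and an adjusted p of 0.155 by edgeR, and was −0.58 with copies summed into the gene.

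Rps3 had 96, 138.5 and 115.5 CPM in tumor-bearing batch 1 lungs 6879, 6880 and 6881, against 274.6 and 246.7 CPM in its normal lungs, and 453.2 CPM in the tumor-bearing lung of batch 2, against 487.2, 743.1, 715.1 and 557.6 CPM in its normal lungs. It too was below every normal lung of its batch, with a log2 fold change of −0.92 ± 0.18 (SE, edgeR adjusted p = 0.17). Rpl36 had 23.4, 34.7 and 25.2 CPM in tumor-bearing batch 1 lungs 6879, 6880 and 6881, against 92.6 and 83.3 CPM in its normal lungs, and 169.7 CPM in the tumor-bearing lung of batch 2, against 160.5, 245.1, 213.7 and 189.7 CPM in its normal lungs. For Rpl36 the batches differed: in batch 2 the batch 2 library of normal lung 6886 was lower than the tumor-bearing lung. The log2 fold change was −1.17 ± 0.25 (SE, edgeR adjusted p = 0.179).

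The most negative estimates were those of Rps7 and Rpl35a, whose human genes are both mutated in the anemia of Diamond and Blackfan. Rps7 had 2.86, 8.17 and 2.75 CPM in tumor-bearing batch 1 lungs 6879, 6880 and 6881, against 31.6 and 28.7 CPM in its normal lungs, and 56.9 CPM in the tumor-bearing lung of batch 2, against 53.1, 85.9, 72.4 and 63.9 CPM in its normal lungs. Rpl35a had 3.36, 4.57 and 3.48 CPM in tumor-bearing batch 1 lungs 6879, 6880 and 6881, against 25.8 and 18.6 CPM in its normal lungs, and 50.9 CPM in the tumor-bearing lung of batch 2, against 47.9, 70.3, 57.5 and 52.1 CPM in its normal lungs. The wide gap of batch 1 was not seen in batch 2, where the tumor-bearing lung lay above the lowest normal lung for both genes. The log2 fold changes were −1.75 ± 0.47 and −1.60 ± 0.40 (SE), with adjusted p of 0.203 and 0.194 by edgeR. For Rps7, 79.9% of the summed counts were on pseudogene copies, and with copies summed the log2 fold changes were −0.52 for Rps7 and −0.82 for Rpl35a. The tumor-bearing lung of batch 2 was then below all its normal lungs for Rps7, at 223.6 CPM against 232.9 to 337.6 CPM, but not for Rpl35a, at 116.7 CPM against 111.7 to 160 CPM.

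By role, beside 52 of all 76 members tested and 7.87% of all genes lower at an unadjusted p below 0.05, members whose human gene is mutated in that anemia had 8 of 9 lower at that level and a median log2 fold change of −0.61. Members at the exit of the peptide tunnel, such as Rpl35, Rpl31 and Rpl23a, had 8 of 10 lower at that level and a median of −0.57. The stalk had 2 of 4, with a median of −0.31, and proteins near the mRNA entry and exit 3 of 6, with −0.39. None of these was called after adjustment, and the differences between roles were not tested.

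Of the 5 members with a positive estimate, Rpl10, a late-joining large subunit protein, was at 0.51 ± 0.27, Rpl12 at 0.42 ± 0.23, Rps2 at 0.38 ± 0.63, Rps27l at 0.30 ± 0.38 and Rpl5 at 0.26 ± 0.30 (SE). With copies summed, Rpl10, Rpl12 and Rpl5 were at −0.33, −0.46 and −0.36, and Rps2 at 0.03. Rps27l, a paralog of Rps27 that p53 is known to induce, was at 0.20 with its copies; these 2 were the members still above 0 in that fit. In batch 1, Rps27l had 12.1, 19.4 and 23.2 CPM in tumor-bearing lungs 6879, 6880 and 6881, against 12.3 and 9.06 CPM in normal lungs 6886 and 6888. In batch 2 it had 20.4 CPM in tumor-bearing lung 6877, against 41.5, 42.1, 36.4 and 19.8 CPM in normal lungs 6886, 6887, 6888 and 6893. The groups overlapped within each batch.

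The median was negative within each batch, at unequal size. In batch 1 alone, with 3 tumor-bearing and 2 normal lungs, the median was −0.55 and 3 members were called lower (0.168% of all genes; 0.058% higher): Rpl35a at −2.51, Rpl36 at −1.63 and Rpl21 at −1.19, with edgeR adjusted p of 0.0237, 0.0317 and 0.0317. In batch 2 alone, with 1 tumor-bearing lung against 4 normal lungs, the median was −0.26 and 0 were called (0.00518% of all genes lower, 0.0362% higher), on the assumption that the lone lung varies like the others. For 54 of 76 members all tumor-bearing lungs of batch 1 were below both normal lungs (20.8% of all genes), and for 45 of 76 the tumor-bearing lung of batch 2 was below all 4 normal lungs (23.9% of all genes). Without tumor-bearing lung 6877 the fit called 14 members lower (0.945% of all genes), with a median of −0.56. Batch 2 then holds no tumor-bearing lung, so these estimates rest on batch 1, with Rpl11 at −1.47 here and −1.46 in batch 1 alone. With the batch 2 libraries of the repeated mice the median was −0.26 with 0 called; batch 1 then holds no normal lung, so the value rests on batch 2.

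Other values moved with the groups. Neutrophil markers, 11 in number and 7 of them tested, summed to 190.1, 73.3 and 67.2 CPM in tumor-bearing lungs 6879, 6880 and 6881 of batch 1, against 22.6 and 19.6 CPM in normal lungs 6886 and 6888. In batch 2 they summed to 168.2 CPM in tumor-bearing lung 6877, against 29.7 to 83.4 CPM in normal lungs. Ly6g was at 0 in every tumor-bearing lung. None of the neutrophil markers was called, and their median log2 fold change was 2.15. Of the 7 tested, 6 had a positive estimate at an unadjusted p below 0.05, where 6.13% of all genes did. In batch 1, protein-coding genes took 49 to 59% of counts in tumor-bearing lungs, against 68.2 to 69.6% in normal lungs. Mitochondrially encoded genes had a median log2 fold change of −0.50, and lung endothelium markers −0.46. B cell markers had 6 of 6 positive estimates and a median of 0.54, and summed to 34.6, 53.4 and 62.1 CPM in tumor-bearing lungs 6879, 6880 and 6881, against 39.7 and 25.8 CPM in normal lungs 6886 and 6888 of that batch. In batch 2 the B cell sum was 66.3 CPM in tumor-bearing lung 6877, against 25 to 57.5 CPM in normal lungs. Lung epithelium markers had 6 of 6 negative estimates and a median of −0.20, with Sftpc at −0.52 ± 0.17 (SE, edgeR adjusted p = 0.248). In batch 1 they summed to 9270 to 12248 CPM in tumor-bearing lungs, against 13611 to 14744 CPM in normal lungs. The direction was not the same in batch 2, with 19660 CPM in tumor-bearing lung 6877, against 17723 to 19437 CPM in normal lungs. There 2 of 6 estimates were negative and the median was 0.20. The part of these in the ribosomal protein estimates was not tested.

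Of the related lists, those for TOP factors, initiation factors, assembly factors, RNA polymerase I, regulators and mitochondrial ribosomal proteins had 0 genes called in either direction in the lung by edgeR. Translation factors with TOP motifs had 19 of 19 negative estimates and a median log2 fold change of −0.32, with Btf3 at −0.40 ± 0.11 (SE, edgeR adjusted p = 0.202). Of these, 9 of 19 were lower at an unadjusted p below 0.05, where 7.87% of all genes were. The 6 listed ribosomal proteins and paralogs outside the naming rule had a median of −0.59, with Rpl22l1, the paralog of Rpl22, at −0.87 ± 0.20 (SE, edgeR adjusted p = 0.189). Mitochondrial ribosomal proteins, ribosome assembly factors and RNA polymerase I had medians nearer to 0, at −0.15, −0.17 and 0.07. At an unadjusted p below 0.05, 10 of 77, 6 of 40 and 0 of 12 of their genes were lower, beside the 7.87% of all genes. Myc was at 0.03 ± 0.29 (SE, edgeR adjusted p = 0.969).

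**Figure D4:**
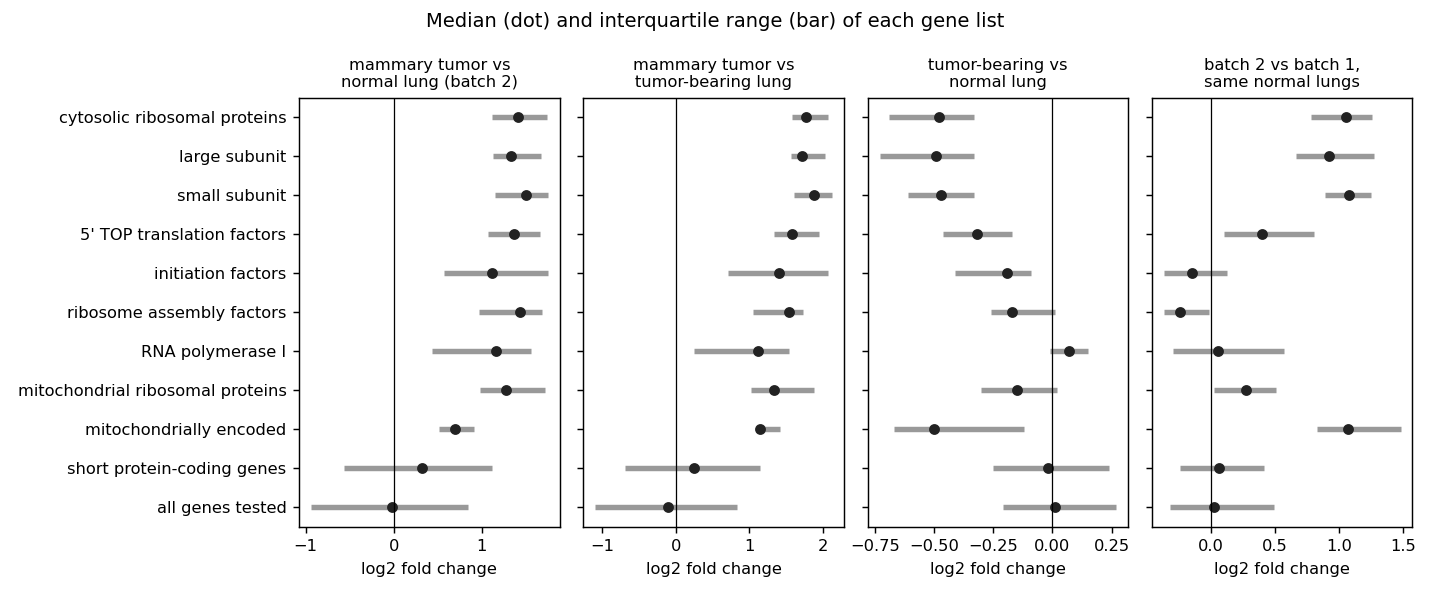
Median log2 fold change (dots) and interquartile range (bars) of gene lists (rows) in the 4 comparisons (panels, each with its own horizontal scale). Cytosolic ribosomal proteins lie at 1.41, 1.77, −0.48 and 1.05 from left to right; assembly factors lie at 1.43 for tumors against normal lung and at −0.24 for batch 2 against batch 1.

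Ribosomal protein genes also differed between preparation batches of the same lungs. Lungs of normal mice 6886 and 6888 were prepared in both batches, and between batch 2 and batch 1 of these same lungs the members had a median log2 fold change of 1.05, against 0.02 over all genes. With the mouse as a block, 35 of 76 tested members were higher in batch 2 and 0 lower (edgeR quasi-likelihood test, 17207 genes, n = 2 mice), where 0.941% of all genes were higher. At an unadjusted p below 0.05, 72 members were higher, where 13.6% of all genes were. For 75 of 76 members both batch 2 libraries lay above both batch 1 libraries (29.7% of all genes), Rps2 being the exception.

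Rps27l changed most between batches, with 41.5 and 36.4 CPM in the batch 2 libraries of mice 6886 and 6888, against 12.3 and 9.06 CPM in their batch 1 libraries, a log2 fold change of 1.89 ± 0.17 (SE, edgeR adjusted p = 0.0401). Rpl39, a short protein lining the peptide tunnel, had 72.6 and 81.8 CPM in batch 2, against 19.3 and 26.2 CPM in batch 1, or 1.79 ± 0.15 (SE, edgeR adjusted p = 0.0401). Rpl4, a large subunit protein that reaches into the peptide tunnel, had 324.5 and 343.9 CPM in batch 2, against 312.3 and 298.4 CPM in batch 1, or 0.14 ± 0.12 (SE, edgeR adjusted p = 0.469). Rpl4 was thus nearly level between batches, while Rps27l and Rpl39 were far apart. Rpl11, Rps3 and Rpl36 were at 0.83, 1.19 and 1.09, with edgeR adjusted p of 0.0615, 0.06 and 0.0565, and Rpl13 at 1.19 with 0.0462. With copies summed, Rpl13 was at 0.77 and missed the threshold (edgeR adjusted p = 0.0604), and Rpl36 at 1.07 passed it (0.0475). In that fit 43 members were called, with a median of 0.95 against 0.02 over all genes. The share of all genes called there was not computed.

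Mitochondrially encoded genes were higher in batch 2 by a similar median, 1.07, with 6 of 13 called, whereas mitochondrial ribosomal proteins had a median of 0.27 with 1 of 78 called, TOP translation factors 0.40 with 2 of 19 called, and assembly factors −0.24 with 0 of 40 called. Short protein-coding genes, by the cutoff near the median length given above, had a median of 0.06. Neutrophil markers had a median of 1.64 and lung endothelium markers −0.73. Heart muscle markers had a median of 3.73, but their sum rose mainly in mouse 6886. It went from 29.2 CPM in batch 1 to 586.5 CPM in batch 2 there, against 30.2 to 37.7 CPM in mouse 6888. Per the labels, the fragmentation step was set by RNA quality, whose values were not used here; the part of these in the difference between batches was not tested. With an offset for transcript length the median of the members was 0.74, against 0.03 over all genes, and 0 were called. The smallest edgeR adjusted p of a member was then 0.073, shared by several members such as Rpl39 at 1.54 and Rps6 at 1.27. The count of 0 therefore does not mean that the estimates vanished. Without the mouse as a block 51 were called. The shares of all genes called in these fits were not computed.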

How the data were processed

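Lungs and mammary tumors gave 13 libraries from total RNA, 100 ng each, after removal of ribosomal RNA, read as 75 bp single ends per the labels' protocols. The submitters' processing notes name Salmon, DESeq2 1.18.1 and mm10. The authors deposited estimated counts (expected counts) and TPM values per gene in a table each. Over 5152 genes checked, dividing a gene's count by its TPM gave the same value in every library apart from 1 factor each (log2 deviation at most 1.51e-14), so these counts were derived from TPM and an average gene length and are not tallies of reads. They were rounded to whole numbers for fitting. Of 46679 gene identifiers 46269 were named from GENCODE M21 (GRCm38), 21581 of them protein-coding. No column lay outside the samples.

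Fits used edgeR 4.0.16 (TMM factors, filterByExpr by group, quasi-likelihood F test) under R 4.3.3 on all genes, with Benjamini-Hochberg adjustment over all genes tested and a threshold of 0.05. Members were read from these fits, and no test was run on the set itself. Where mice 6886 and 6888 had a library in each batch, the batch 1 library entered fits over both batches. CPM use TMM factors over all 13 libraries. Lists are described by counts and medians beside those of all genes tested. For alternative fits, shares of all genes called were computed only for some of those on tumor-bearing against normal lung. Members named are the markers Rpl11, Rps3, Rpl36 and Rpl13, the stalk proteins, Rpsa, members whose symbol ends in l, the 8 most negative and 8 most positive estimates and the 6 smallest p, and up to 4 genes of each other list by p. Some genes that this rule picks are not reported here. The others mentioned were singled out after their values were seen. Members and lists were chosen with earlier results of these data known.

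Alternatives were DESeq2 1.42.0, voom of limma 3.58.1, limma on log2(TPM + 1) and log2(TPM + 0.1), DESeq2's size factors, no filter on low counts, protein-coding genes alone, an offset for average transcript length (relative lengths from count over TPM), other uses of batches and repeat libraries, and leaving out each library. Summing pseudogene copies into members was added after the data were seen; copies were found with blastn 2.17.0. Tumors and lungs numbered 6877, 6880 and 6881 come from the same mice and are therefore paired. The residuals of these pairs correlated at 0.178, 0.0359 and −0.129. Each mouse is a replicate. Libraries of batch 1 and 2 from the same mouse are repeats of preparation. The fits were tested on simulated data. Promoter sequences are from RefSeq (GRCm38.p6).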

Additional observations from a re-analysis of the deposited data

Results flagged for a closer look

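Among 45 quantities checked in each group of 4 lungs (named members' CPM and the share of the set), a single library stood apart from the other 3 by the criterion of Dixon in 21 quantities in the tumor-bearing lungs, 4 in the normal lungs of batch 2 and 0 in the normal lungs of the comparison over 8 lungs. Chance flags about 1 in 20 groups, and the tumor-bearing lungs hold 3 libraries of batch 1 and 1 of batch 2, which cannot be told apart from the mouse.

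Tumor-bearing lung 6877 of batch 2 was above the other tumor-bearing lungs in 19 genes. Its levels, in CPM, were 110.3 for Rpl11, 212.7 for Rpl13, 145.7 for Rpl21, 130.4 for Rpl27a, 25.6 for Rpl34, 143.9 for Rpl35, 50.9 for Rpl35a, 169.7 for Rpl36, 71.1 for Rpl37 and 87.5 for Rpl38. They were 417.7 for Rplp0, 287.4 for Rplp1, 187.7 for Rplp2 and 290.2 for Rpsa. Among other small subunit genes they were 358.2 for Rps15, 210.9 for Rps21, 498.1 for Rps24, 453.2 for Rps3 and 56.9 for Rps7. The share of the set in protein-coding counts of this lung was 2.68%, against 0.985 to 1.11% in the others. In Rps2 the library apart was tumor-bearing lung 6880 of batch 1, at 17.1 CPM, against 3.96 to 4.72 CPM.

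Within the normal lungs of batch 2, Rpl10 was at 46.5 CPM in mouse 6893, against 66.6 to 70.5 CPM in the others, and Rpl27a was at 95.6 CPM in mouse 6886, against 141.6 to 144.2 CPM. Mouse 6887 was high in Rpl23a, at 310.4 CPM against 247.3 to 257.8 CPM, and in Rps13, at 91.2 CPM against 59.5 to 62.8 CPM.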

How the results depend on the processing

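For tumor-bearing against normal lung, 0 members were called lower, but 30 by DESeq2, 17 without a filter on low counts, 3 in batch 1 alone and 2 by limma on log2(TPM + 1) or log2(TPM + 0.1). Leaving out each lung gave 0 to 14, the highest without tumor-bearing lung 6877, where the estimates rest on batch 1. The median of −0.48 was −1.09 and −1.17 on these TPM scales, where that of all genes was −0.23 and −0.54, −0.76 without the batch term, −0.26 in batch 2 alone or with the batch 2 libraries of the repeated mice, and −0.08 with repeats summed and entered as batch 2; these last settings leave batch 1 with no normal lung. Signs of the genes picked by the naming rule turned, by setting, as follows. In batch 1 alone: Rpl36a 0.16, Rps13 0.38, Rps4x 0.04. In batch 2 alone: Rpl10 −0.40, Rpl5 −0.51, Rplp2 0.07, Rps2 −0.95, Rps27l −0.77, and outside the rule Rpl7a 0.04. With batch 2 libraries of the repeats: Rpl10 −0.40, Rpl5 −0.50, Rplp2 0.07, Rps2 −0.94, Rps27l −0.77, and outside the rule Rpl7a 0.04. With repeats summed: Rpl10 −0.17, Rpl35 0.08, Rpl35a 0.06, Rpl37 0.00, Rpl5 −0.24, Rplp0 0.04, Rplp1 0.04, Rplp2 0.18, Rps2 −0.76, Rps27l −0.44. On log2(TPM + 1): Rpl10 −0.18, Rpl12 −0.10, Rpl5 −0.26, Rps2 −0.24, Rps27l −0.37. On log2(TPM + 0.1): Rpl10 −0.20, Rpl12 −0.22, Rpl5 −0.41, Rps2 −0.45, Rps27l −0.40. Without the batch term: Rpl5 −0.26, Rps27l −0.15. With copies summed: Rpl10 −0.33, Rpl12 −0.46, Rpl5 −0.36. Rps13 was 0.14 with the length offset and 0.00 over protein-coding genes alone. Leaving out single lungs, Rpl36a ranged between −0.34 and 0.15, Rps4x between −0.14 and 0.03, Rps13 between −0.22 and 0.37 and Rps2 between −0.35 and 1.01. No paired analysis was possible because tumor-bearing and normal lungs share no mouse. For tumors against normal lung, the length offset gave a median of 0.89, Rpl21 −0.04 and Rps29 −0.19. Against tumor-bearing lung the median of 1.77 was 1.17 with the length offset, 2.13 on log2(TPM + 0.1) and 2.57 without the batch term, and the replicate block gave 2.02 with 51 called. Between batches of the same lungs, the count of 35 was 58 by DESeq2 and 65 from the batch term of the 8 lungs. It was 0 with the length offset (smallest edgeR adjusted p 0.073), 14 on log2(TPM + 1) and 17 on log2(TPM + 0.1). The median of 1.05 was 1.29, 0.74, 0.46 and 0.50 under the last 4 settings. Between these batches the median of all genes was −0.17 on log2(TPM + 1) and −0.41 on log2(TPM + 0.1). There Rpl28 was −0.28 with the length offset, and on log2(TPM + 1) and log2(TPM + 0.1) the values were Rpl21 −0.19 and −0.19, Rpl28 −0.29 and −0.30, Rpl4 −0.39 and −0.40, Rpl6 −0.15 and −0.15, Rpl7 −0.10 and −0.10, Rplp2 −0.02 and −0.02, and Rps4x −0.04 and −0.04. The cause of these differences was not tested. Leaving out libraries was not run for the comparison between batches, where no residual degrees of freedom would remain. Rpl3l, Rpl10l and Rpl39l were at or near 0, and a difference in them was not detectable at this depth. Rps12 was at 0 in its own entry, with all of its summed counts on pseudogene copies. With copies summed it was at −0.42 ± 0.13 for tumor-bearing against normal lung (SE, edgeR adjusted p = 0.227).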
